A study of Mus musculus with 4 samples.

Results

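Gene expression in the whole brain of wild-type mice was compared between 1 array from a mouse brain taken 12 hours after lipopolysaccharide (LPS) and 1 array taken after phosphate-buffered saline (PBS). These are 2 of the 4 arrays of the study, picked by their labels for genotype and injected agent. The comparison was chosen with earlier results of these data known. Of 23462 genes named on the array, 16494 (70.3%) were well above background on both wild-type arrays and form the measured set. LPS, the endotoxin of Gram-negative bacteria, was injected into the peritoneum at 20 mg per kg of body weight, per the labels' protocols. Wild-type mice carry neither transgene of the study's second genotype, Nav1.8CreROSA26DTA. In that line, Cre recombinase expressed from the Nav1.8 (Scn10a) locus turns on diphtheria toxin A from the ROSA26 locus, so that sensory neurons of the Nav1.8 lineage are lost. The same injections were given to that genotype, with 1 array each. The labels used here state no age, sex or strain and leave unsaid if the RNA on an array was pooled from several animals. With 1 array a side there is no replicate error and no test, so the differences below describe these 2 arrays, and the animal and the treatment cannot be told apart.

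LPS is recognised by Toll-like receptor 4 together with its partner MD-2, helped by the LPS-binding protein and CD14. The receptor signals through MyD88 to NF-kappa-B, which switches on cytokines, chemokines and its own inhibitors, and through TRIF to interferon regulatory factors, which switch on type I interferon and through it a large set of interferon-stimulated genes. In the brain, a peripheral dose of LPS is known to reach mainly the endothelium, the choroid plexus and the meninges first, and microglia, the resident macrophages, and astrocytes change their expression after it. Homeostatic microglia are known by purinergic receptors such as P2RY12, which are lost when the cells are activated.

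The values were log2 spot intensities (brightness after the scanner software's background subtraction) minus the 75th percentile of their own array, called levels here, so that a level of 0 is as bright as that percentile. A difference is the LPS level minus the PBS level, and a difference of 1 is 2-fold. The 75th percentile was an intensity of 612 on the wild-type PBS array and 634 on the wild-type LPS array, and 69.5% and 66.5% of their spots were well above background. No spot was saturated (0 on each array). The spread between spots was taken over 299 probes printed as 10 spots and well above background on both wild-type arrays. Their median SD between spots was 0.0456 (PBS) and 0.0436 (LPS) on the log2 scale. This is the error between spots within an array for these probes, and it was not split by brightness. Over 6101 genes with several measured probes, the median SD of the difference between a gene's probes was 0.105. The tissue label was checked on marker genes. Of 32 neuronal genes 29 were measured, and the synaptic vesicle gene Snap25 was at a level of 5.95 with PBS and 5.88 with LPS. All 19 homeostatic astrocyte genes listed and 19 of 20 oligodendrocyte genes were measured. Some regional markers were not well above background on either wild-type array. These were Ttr of the choroid plexus, the dopamine and serotonin transporter genes Slc6a3 and Slc6a4 of the midbrain and raphe, and Gabra6 of cerebellar granule cells. The labels' protocols describe whole brains, and which regions the RNA holds was not tested. The PBS and LPS arrays lay in different rows of 1 slide, so position and treatment cannot be told apart.

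The promoters of 5 strongly LPS-higher genes are shown because they hold matches to the DNA elements of the 2 signalling arms named above, NF-kappa-B and interferon. They are the 5 genes with the largest positive differences that had a match in the 250 bases before the gene's start, and the sequences are from RefSeq on build GRCm38.p6. Capitals mark a match to the kappa-B consensus or to the interferon response element core GAAANNGAA, on either strand, and each sequence runs 5′ to 3′ on the gene's strand up to the base before its start. The windows are chr5:92348890-92349139 (minus strand) for the chemokine gene Cxcl10, chr3:142620413-142620662 (plus strand) for the guanylate-binding protein gene Gbp2 and chr11:49064213-49064462 (minus strand) for the interferon-inducible GTPase gene Tgtp2. They are chr1:171018676-171018925 (plus strand) for the Fc receptor gene Fcgr4 and chr19:11469118-11469367 (plus strand) for Ms4a6c, which encodes a membrane protein of myeloid cells.
Cxcl10: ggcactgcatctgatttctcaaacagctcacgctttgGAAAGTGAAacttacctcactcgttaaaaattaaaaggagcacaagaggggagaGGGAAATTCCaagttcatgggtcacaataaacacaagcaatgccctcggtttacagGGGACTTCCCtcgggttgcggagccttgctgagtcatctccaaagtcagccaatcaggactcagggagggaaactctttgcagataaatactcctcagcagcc
Gbp2: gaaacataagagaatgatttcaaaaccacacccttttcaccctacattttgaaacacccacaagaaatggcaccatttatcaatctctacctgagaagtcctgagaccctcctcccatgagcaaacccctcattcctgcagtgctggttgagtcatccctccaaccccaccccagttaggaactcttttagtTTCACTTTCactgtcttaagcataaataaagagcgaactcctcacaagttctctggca
Tgtp2: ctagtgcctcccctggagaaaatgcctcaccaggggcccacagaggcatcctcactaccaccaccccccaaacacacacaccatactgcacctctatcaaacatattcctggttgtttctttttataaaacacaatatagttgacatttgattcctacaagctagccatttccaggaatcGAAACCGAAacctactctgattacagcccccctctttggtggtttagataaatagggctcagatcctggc
Fcgr4: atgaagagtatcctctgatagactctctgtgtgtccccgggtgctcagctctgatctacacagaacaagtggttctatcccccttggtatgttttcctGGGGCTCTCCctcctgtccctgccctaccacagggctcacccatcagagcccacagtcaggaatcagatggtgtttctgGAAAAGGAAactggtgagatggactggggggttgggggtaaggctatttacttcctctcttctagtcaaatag
Ms4a6c: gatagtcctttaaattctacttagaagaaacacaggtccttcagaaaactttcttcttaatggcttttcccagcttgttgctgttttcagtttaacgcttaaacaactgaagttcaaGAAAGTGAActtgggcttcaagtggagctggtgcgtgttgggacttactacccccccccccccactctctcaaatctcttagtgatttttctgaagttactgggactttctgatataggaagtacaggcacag

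In the Cxcl10 window, the 2 kappa-B matches began 159 and 103 bases before the start and the interferon core match 213 bases before it. Gbp2 held 1 interferon core match, 58 bases before its start, and Ms4a6c held 1 at 133 bases. Tgtp2 held an interferon core match at 70 bases and a match to the gamma-activated site TTCNNNGAA, which did not overlap it, at 81 bases. Its matches to the TATA box TATAAA, at 129 and 127 bases, lay on opposite strands and overlapped. Fcgr4 held a kappa-B match at 152 bases and an interferon core match at 73 bases. The 5 windows therefore place the same short letters at different distances from the start.

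For the shares below, a promoter window ran from 250 bases before the gene's start to 50 bases after it, longer than the sequences printed above. Such a window was found for 13024 of the 16494 measured genes, 1 window per gene. The interferon core was in 7.22% of these windows, in 17.7% of the 417 windows of genes at least 2-fold higher with LPS, in 32.8% of the 58 windows of genes at least 8-fold higher and in 8.43% of the 83 windows of genes at least 2-fold lower. It was in 44.8% of the 29 windows of type I interferon-stimulated genes. The kappa-B consensus was in 4.94% of all measured windows, 9.11% of those of higher genes, 13.8% of those at least 8-fold higher and 2.41% of those of lower genes. The gamma-activated site TTCNNNGAA was in 7.05%, 12.5%, 19.0% and 3.61% in the same order. The TATA box TATAAA was in 8.82%, 16.5%, 24.1% and 19.3%, and so was also more frequent in windows of lower genes than in all measured windows. In all 27025 windows of the table the shares were 8.57% for the interferon core, 4.35% for kappa-B, 8.47% for the gamma-activated site and 14.2% for the TATA box. The sets also differed in base composition. The median GC content was 59.7% over all measured windows, 54.7% for higher genes, 50.2% for those at least 8-fold higher and 53.7% for lower genes, and the median number of CG pairs was 19, 7, 4 and 6. The part of base composition in the motif shares was not tested, and a match is a description of letters and not a bound site.

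Across the measured genes the response was mostly upward. In total 562 genes (3.41%) were at least 2-fold higher and 102 (0.618%) at least 2-fold lower with LPS. At 4-fold the counts were 187 higher and 6 lower, at 8-fold 78 and 1, at 16-fold 35 and 0, and at 32-fold 5 and 0. The median difference over all measured genes was −0.02, with quartiles of −0.17 and 0.14 and an SD of 0.504. For scale, the PBS arrays of the 2 genotypes differed with an SD of 0.332 over 16627 genes, and 270 of these (1.62%) were at least 2-fold apart, 201 higher and 69 lower in Nav1.8CreROSA26DTA. That comparison holds both a genotype and a different animal.

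The share of genes past 2-fold depended on how bright they were. In 5 equal groups of measured genes ordered by their mean level, the share at least 2-fold higher was 6.43%, 6.30%, 2.43%, 1.39% and 0.485% from the dimmest to the brightest. The share at least 2-fold lower was 1.39%, 1.30%, 0.182%, 0.121% and 0.0909%. The SD of the LPS difference was 0.638 in the dimmest group and 0.226 in the brightest, and that of the PBS pair was 0.478 and 0.209. Of the 120 genes past 2-fold with several measured probes, 115 had every probe in the same direction and 79 had every probe past 2-fold.

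**Figure D1:**
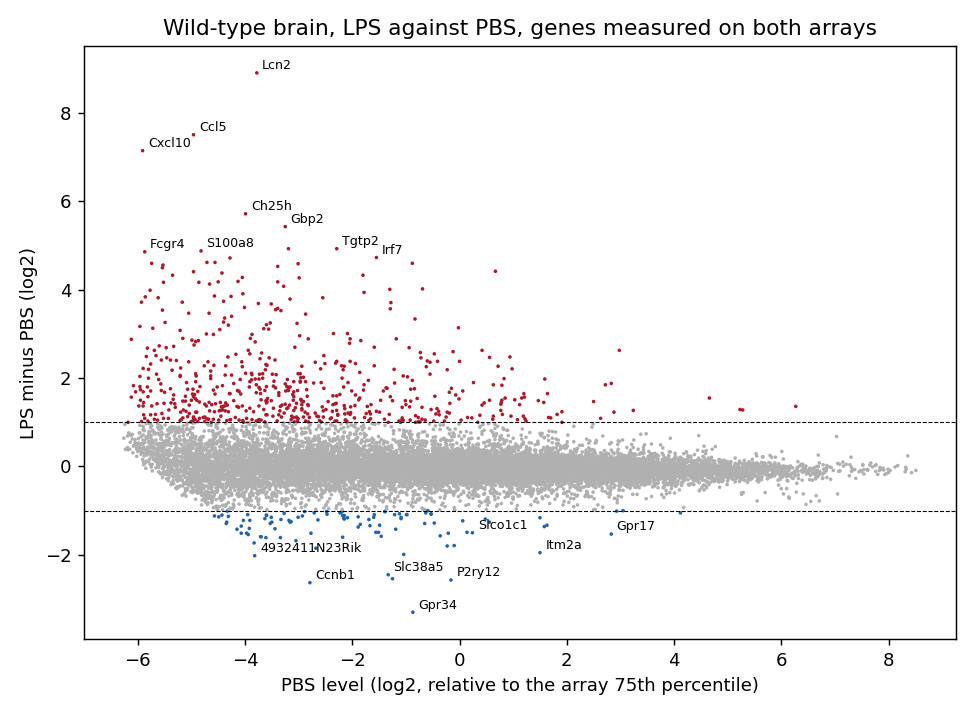
Each point is 1 of the 16494 measured genes, with its PBS level on the x axis (log2, relative to the array's 75th percentile) and the LPS minus PBS difference on the y axis (log2). Dashed lines mark 2-fold, with 562 genes above the upper line in red and 102 below the lower line in blue, and Lcn2 stands highest at 8.91 while Gpr34 stands lowest at −3.30.

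The 3 largest differences were those of a siderophore-binding protein and 2 chemokines. Lcn2 encodes lipocalin 2, which withholds iron from bacteria by binding their siderophores. Its level was −3.78 with PBS and 5.13 with LPS, a 482-fold difference (8.91 on the log2 scale). Ccl5, a chemoattractant of T cells and monocytes, stood at −4.96 with PBS and 2.56 with LPS (183-fold). Cxcl10, an interferon-induced chemoattractant, stood at −5.91 and 1.24 (142-fold). All 3 were far below the array's 75th percentile with PBS and above it with LPS. Ch25h, the enzyme that makes the antiviral oxysterol 25-hydroxycholesterol, followed with levels of −3.99 and 1.73 (52.7-fold). Gbp2 was at −3.25 with PBS and 2.18 with LPS (43.0-fold), and Tgtp2 at −2.29 and 2.64 (30.5-fold). These 2 genes encode interferon-inducible GTPases that act against pathogens inside cells. With normexp background correction, which here added an offset of 50 to each intensity, the difference of Cxcl10 was 4.40 in place of 7.15. Such an offset makes the differences of dim genes smaller by construction. Smaller values with normexp, here and below, are therefore in part fixed by this setting.

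The alarmin genes S100a9 and S100a8, abundant in neutrophils, differed by 4.93 (levels −3.19 and 1.74) and 4.88 (levels −4.82 and 0.06). Fcgr4, an activating receptor for the Fc part of IgG, was at −5.87 with PBS and −1.01 with LPS (29.0-fold). Irf7, the transcription factor that amplifies type I interferon, was at −1.55 and 3.18 (26.5-fold), and its 2 probes differed by 4.71 and 4.73. The interleukin-1 decoy receptor gene Il1r2 was at −4.28 and 0.45 (26.4-fold). Gbp4, another guanylate-binding protein gene, was at −4.56 and 0.06 (24.7-fold). The water channel gene Aqp1 was at −4.71 and −0.09 (24.6-fold). Ctla2b, which encodes a cysteine protease inhibitor, was at −0.88 and 3.72 (difference 4.60), and the inhibitory myeloid receptor gene Lilrb4a was at −5.74 and −1.14 (24.2-fold). With normexp the differences were smaller for Fcgr4 (2.55), Gbp4 (3.0), Aqp1 (2.96) and Lilrb4a (2.0).

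**Figure D2:**
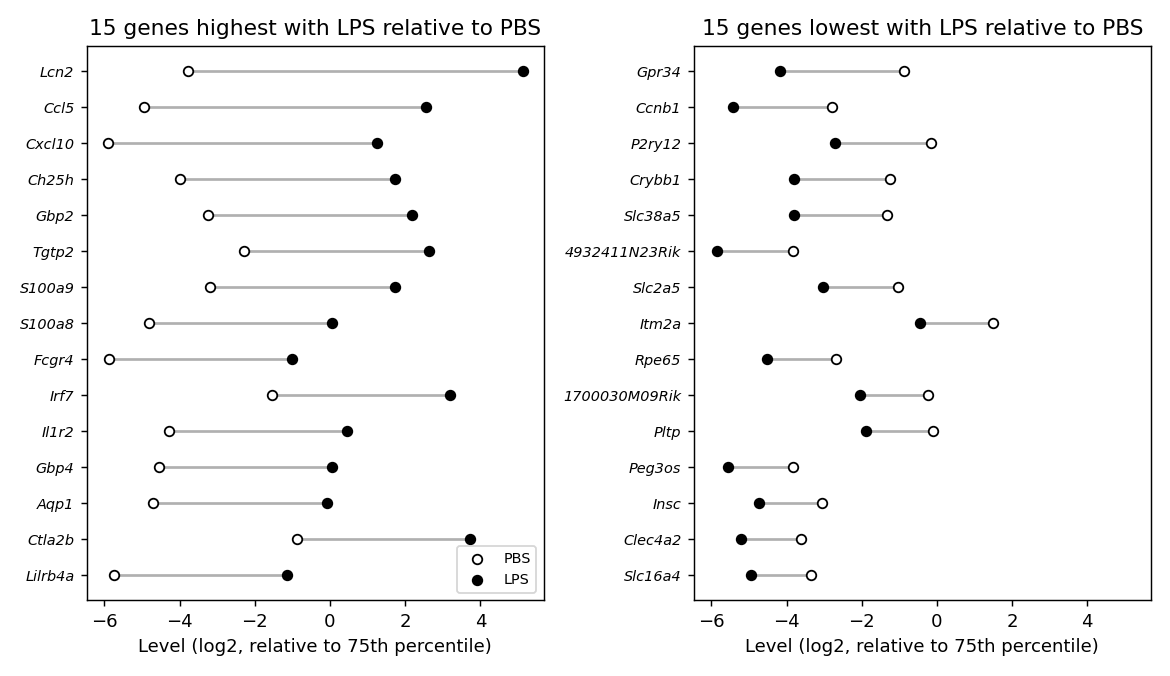
Levels (log2, relative to the array's 75th percentile) of the 15 genes with the largest positive and the 15 with the largest negative difference, with the PBS array as an open and the LPS array as a filled circle. The left panel runs from Lcn2 (8.91) to Lilrb4a (4.60), and the right panel from Gpr34 (−3.30) to Slc16a4 (−1.61).

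The largest negative differences were smaller. Gpr34, a lysophosphatidylserine receptor gene of microglia, was at −0.87 with PBS and −4.17 with LPS, 9.83-fold lower, and its probes differed by −3.30 to −2.24. P2ry12, the ADP receptor that steers microglial processes towards injury, was at −0.16 and −2.72 (5.92-fold lower). Crybb1, a crystallin gene also found in microglia, was at −1.25 and −3.79 (difference −2.54). Slc2a5, a fructose transporter gene of microglia, was at −1.04 and −3.04 (3.98-fold lower). The glutamine transporter gene Slc38a5 was at −1.33 and −3.79 (5.47-fold lower) and the endothelial membrane protein gene Itm2a at 1.5 and −0.44 (3.85-fold lower). Pltp, the phospholipid transfer protein gene, was at −0.10 and −1.89 (difference −1.79). Ccnb1, which encodes the mitotic cyclin B1, was at −2.79 and −5.42 (6.19-fold lower), but in the other genotype it differed by −0.16.

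The remaining genes among the 15 lowest were mostly dim. The retinoid isomerase gene Rpe65 (−1.85), the cell polarity gene Insc (−1.68), the lectin receptor gene Clec4a2 (−1.61), the transporter gene Slc16a4 (−1.61), 4932411N23Rik (−2.02) and the antisense gene Peg3os (−1.73) had PBS levels between −3.83 and −2.68. With normexp each of these 6 was less than 2-fold lower (−0.76, −0.62, −0.53, −0.67, −0.59 and −0.36 in that order). In Nav1.8CreROSA26DTA, 4932411N23Rik differed by 0.36 and Peg3os by 0.17. The RIKEN gene 1700030M09Rik was at −0.23 with PBS and −2.04 with LPS, and differed by −0.24 in the other genotype. Normexp also gave smaller differences for Gpr34 (−2.05), Crybb1 (−1.59), Slc38a5 (−1.56) and Ccnb1 (−1.03), all still past 2-fold.

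Among genes at or above the 75th percentile with PBS, where intensity is far from background, the largest negative differences included genes of vessels and of the oligodendrocyte lineage. After Itm2a came Gpr17, a receptor gene of committed oligodendrocyte precursors, at 2.83 with PBS and 1.30 with LPS (2.90-fold lower). Slco1c1, the thyroid hormone transporter of the blood-brain barrier, was at 0.24 and −1.26 (2.83-fold lower). Pllp, a myelin membrane protein gene, was at 0.14 and −1.35. Acadl, an enzyme gene of fatty acid oxidation, was at 1.58 and 0.23, a difference of −1.36 that was −0.14 in Nav1.8CreROSA26DTA. The endothelial phosphatase gene Ptprb was at 1.63 and 0.30, and Apln, the ligand of the apelin receptor, at 0.56 and −0.70. Abcb1a, the barrier's P-glycoprotein drug pump, was at 0.48 and −0.71, and the microglial lipid receptor gene Trem2 at 1.5 and 0.34.

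A further 311 genes were well above background with LPS and not with PBS, 715 with PBS and not with LPS, and 5942 on neither wild-type array. For these a bound was computed as the bright level against the higher of the dim gene's own level and the lowest level well above background on that array, which was −6.33 (PBS) and −5.91 (LPS). The bound was at least 2-fold for 210 genes in the higher and 48 in the lower direction, and at least 4-fold for 97 and 12. Saa3, an acute-phase serum amyloid A made at sites of inflammation, was at 4.72 with LPS and not well above background with PBS, and so at least 2129-fold higher. The stromelysin gene Mmp3 was at least 48.2-fold higher, the neutrophil chemoattractant gene Cxcl1 at least 45.5-fold, and Cfb, the alternative-pathway complement factor B, at least 45.3-fold. Prok2, the gene of prokineticin 2, was at least 39.5-fold higher, the interferon-stimulated gene Ifi44 at least 19.1-fold and Lox, the collagen cross-linking enzyme gene, at least 14.7-fold. The remaining 3 of the 10 highest bounds were Gm1966 (16.4), the chitinase-like gene Chil6 (15.9) and the olfactory receptor gene Olfr98 (15.8). In Nav1.8CreROSA26DTA, Saa3 was at least 4552-fold, Mmp3 at least 154-fold, Cxcl1 at least 65.9-fold and Cfb at least 58.9-fold higher with LPS. The bounds of Prok2 (13.9) and Ifi44 (11.5) were smaller there than in wild-type. Gm1966 and Lox, measured on both arrays of that genotype, differed by 2.36 and 2.08. Chil6 and Olfr98 had neither a measured difference nor a bound in the higher direction there.

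Bounds in the lower direction were smaller. Cpsf4l was at −2.77 with PBS and not well above background with LPS, and so at least 8.77-fold lower. Gm20125 was at least 8.47-fold lower, Olfr75-ps1 at least 8.32-fold, Fam181a at least 7.72-fold and Gm10790 at least 7.30-fold. The interleukin-18 receptor gene Il18r1 was at least 6.62-fold lower, Ceacam18 at least 6.29-fold and Acnat2 at least 5.25-fold. C1ql1, a gene of oligodendrocyte precursors, was at least 5.02-fold lower, and the kinase gene Alpk2 at least 4.75-fold. The PBS levels of these 10 genes lay between −3.66 and −2.77.

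**Figure D3:**
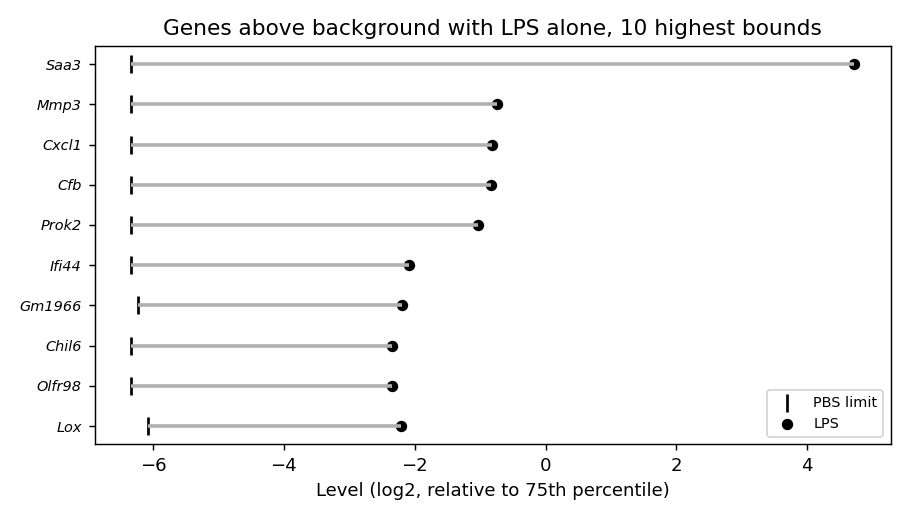
For the 10 genes with the highest bounds, the filled circle is the level on the LPS array (log2, relative to the 75th percentile) and the tick is the limit on the PBS array, where none was well above background. Saa3 reaches 4.72 with LPS and the other 9 lie below 0.

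The following groups are lists of genes by role, read against the 3.41% of all measured genes that were at least 2-fold higher, the 0.618% at least 2-fold lower and the overall median of −0.02. Of 17 measured genes of LPS sensing, 6 were at least 2-fold higher and 0 lower, with a median of 0.39. Lbp, the LPS-binding protein, was at −3.75 with PBS and −0.06 with LPS (12.9-fold). Cd14, the co-receptor that hands LPS over, was at −2.53 and −0.02 (5.69-fold, with probes at 2.51 to 2.72). Tlr2, the receptor for bacterial lipopeptides, was at −3.53 and −0.28 (9.52-fold). Tlr4 itself was dim, at −5.07 and −3.93 (2.19-fold), and differed by 0.34 with normexp. Irak3, an inhibitor of the Toll-like receptor complex, was at −5.66 and −3.15 (5.72-fold) but at 0.76 with normexp. Ly96, which encodes MD-2, differed by −0.23 with its other probe at 0.55. Acod1, the itaconate-producing enzyme, was at least 9.34-fold higher. The adaptor gene Myd88 differed by 0.90 and the kinase genes Irak1 and Map3k7 by −0.01 and 0.07.

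Of 25 measured NF-kappa-B subunits and feedback inhibitors 6 were higher and 0 lower (median 0.28). The inhibitors and regulators carried most of these. Bcl3, a nuclear coactivator, was at −4.01 with PBS and −0.41 with LPS (12.1-fold). Nfkb2 was at −2.85 and −1.11 (3.34-fold), Nfkbia, which encodes the inhibitor I-kappa-B alpha, at 1.82 and 3.0 (2.26-fold) and the ubiquitin-editing inhibitor Tnfaip3 at −2.15 and −0.77 (2.61-fold). Zfp36, a protein that degrades cytokine mRNA, was at −3.06 and −1.73, a difference of 1.33 that was 0.91 with normexp. The other DNA-binding subunits were within 2-fold, with Relb at 0.77, Nfkb1 at 0.22, Rela at 0.20 and Rel at −0.05.

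Cytokine genes themselves were mostly dim at 12 hours. Of 26 listed, 16 were measured, and 1 of these was at least 2-fold higher (median 0.19). That gene was Osm, an interleukin-6 family cytokine, at −5.89 with PBS and −4.44 with LPS, a difference of 1.45 that was 0.17 in the other genotype and 0.34 with normexp. Il1b was at −4.36 and −3.38 (0.98) and Tnf at −1.87 and −1.74 (0.13), while Il6, Il1a, Il10 and Ifng were not well above background on either wild-type array. Csf3, whose product drives granulocyte production, was at least 8.14-fold higher, Ifnb1, the gene of interferon beta, at least 2.79-fold and Il1rn, the interleukin-1 receptor antagonist, at least 2.03-fold. The alarmin gene Il33 was at 0.97 and 0.14 (−0.83).

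Their receptors and signal transducers were measured in all 35 cases, with 12 higher and 0 lower (median 0.31). After Il1r2 the largest were Osmr, the oncostatin M receptor, at −2.05 with PBS and 0.74 with LPS (6.90-fold), and Csf2rb, the common beta chain of several receptors, at −3.69 and −1.12 (5.93-fold, with probes at 0.16 to 2.57 and a mean over probes of 1.36). Il1r1, the signalling receptor for interleukin-1, was at −2.94 and −1.63, a difference of 1.31 that was 0.79 with normexp. Socs3, the feedback inhibitor of the interleukin-6 receptor, was at −1.37 and 0.41 (3.44-fold). The interferon receptor subunits Ifnar1 and Ifngr1 differed by −0.10 and 0.31.

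Of 18 measured chemokine genes on the list 8 were higher and 0 lower (median 0.90, against −0.01 in Nav1.8CreROSA26DTA). Besides Ccl5 and Cxcl10, Ccl2, the main monocyte chemoattractant, was at −5.35 with PBS and −1.02 with LPS (20.1-fold), a difference of 4.33 that was 2.45 with normexp and 1.64 in the other genotype. Ccl12 was at −3.62 and −1.43 (4.58-fold; 1.37 with normexp) and differed by −0.44 in the other genotype. Cxcl16, a membrane-bound chemokine gene of endothelium and macrophages, was at −4.92 and −2.82 (4.28-fold; 0.85 with normexp). Cxcl9 was at least 7.85-fold and Ccl7 at least 9.0-fold higher. Not all chemokines were higher. Ccl24, which is not on the list and was chosen after its value was seen, was at −4.49 with PBS and −5.62 with LPS, a difference of −1.14 that was −0.33 with normexp. Cxcl12, which holds CXCR4-bearing cells in place, differed by −0.48 (its probes by −0.48 to 0.67), the neuronal fractalkine gene Cx3cl1 by −0.31 and Ccl27a by −0.53.

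Interferon-stimulated genes were higher nearly throughout. Of 37 measured type I interferon-stimulated genes 32 were at least 2-fold higher and 0 lower, all 37 differences were above 0, and the median was 2.69 (1.85 in Nav1.8CreROSA26DTA). Isg15, the ubiquitin-like modifier, was at −1.29 with PBS and 2.28 with LPS (11.8-fold). Usp18, which removes that modifier, was at −4.40 and −0.66 (13.4-fold; 2.32 with normexp). Ifit1, which binds foreign RNA, was at −4.47 and −1.37 (8.56-fold; 1.73 with normexp). The oligoadenylate synthetase family members Oasl1 and Oasl2 were at −4.96 and −0.55 (21.2-fold; 2.54 with normexp) and at −3.39 and 0.79 (18.1-fold). Zbp1, a sensor of Z-form nucleic acid, was at −4.66 and −0.53 (17.5-fold; 2.44 with normexp). The members nearest 0 were the RNA-editing gene Adar (0.02) and Cmpk2 (0.33).

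Interferon-inducible GTPases moved with them. Of 14 measured 12 were higher and 0 lower (median 3.32, and 3.07 in Nav1.8CreROSA26DTA). Besides Gbp2, Tgtp2 and Gbp4, Iigp1, which disrupts pathogen vacuoles, was at −2.99 with PBS and 1.29 with LPS (19.3-fold), and Gbp3 at −2.55 and 1.27 (14.2-fold). Gbp8 was at least 6.72-fold higher. Gbp9 was bright on both arrays, at 4.17 and 3.88, and differed by −0.29. Probes for close copies in this family, as in the Saa, Ly6, Ctla2 and haemoglobin families, may share sequence, and their specificity was not tested.

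Of 22 measured antigen presentation genes 12 were higher and 0 lower (median 1.07; 0.85 with normexp and 0.98 with the mean over probes). Nlrc5, the transactivator of class I genes, was at −5.54 with PBS and −2.0 with LPS (11.6-fold; 1.57 with normexp). Psmb8 and Psmb9, subunits of the immunoproteasome, were at −2.98 and −0.02 (7.81-fold) and at −2.69 and −0.33 (5.15-fold). Tap1, a subunit of the peptide transporter, was at −2.82 and 0.08 (7.43-fold). The class I heavy chain genes H2-K1 and H2-D1 were at 1.59 and 3.57 (3.94-fold) and at 0.63 and 2.48 (3.61-fold). Other class I and related genes differed less, with H2-T22 at 0.69, H2-M3 at 0.54 and H2-Q4 at −0.11. Among class II genes, H2-Ab1 differed by 0.60, H2-DMb1 by 0.55, H2-Aa by 0.11 and H2-Eb1 by 0.03. In Nav1.8CreROSA26DTA, H2-Aa, H2-Ab1 and H2-Eb1 differed by −1.91, −0.82 and −1.93, and whether the genotypes differ was not tested. Ciita, the class II transactivator, was at least 2.56-fold higher. Cd74, the class II chaperone, was at −3.03 and −1.92 (2.15-fold; 0.67 with normexp) and differed by −0.38 in the other genotype.

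Of 18 measured complement genes 10 were higher and 0 lower (median 1.06; 0.81 with normexp). Serping1, the C1 inhibitor, was at −1.22 with PBS and 0.98 with LPS (4.60-fold). C4b was at 0.26 and 2.16 (3.72-fold) and C1ra, a C1 protease, at −1.79 and −0.05 (3.33-fold). The C1q chains C1qa and C1qb were at 1.08 and 2.15 (2.09-fold) and at 0.62 and 1.69 (2.09-fold), and C1qc differed by 0.41. C5ar1, the receptor of the anaphylatoxin C5a, was at −4.29 and −2.64 (3.14-fold; 0.71 with normexp). The central component C3 was 2.16-fold higher by the probe that represents it, while its probes ranged from 1.11 to 4.23 (mean 2.67, and 0.94 for the representing probe with normexp). Cfb, given above as a bound, stood highest.

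Of 19 measured acute-phase and iron genes 8 were higher and 1 lower (median 0.68). Serpina3n, a serine protease inhibitor of reactive astrocytes, was at −3.01 with PBS and 1.57 with LPS (24.0-fold). Saa1 was at −1.78 and 2.16 (15.3-fold) and Saa2 at −3.33 and 0.20 (11.5-fold). Hp, the haemoglobin-binding haptoglobin, was at −5.86 and −2.03 (14.3-fold; 1.71 with normexp). Cp, the ferroxidase ceruloplasmin, was at −1.28 and 2.43 (13.1-fold), with another probe at 0.60 and a mean over probes of 2.35. The liver acute-phase genes Orm1, Orm2 and Orm3 and the iron hormone gene Hamp were not well above background on either wild-type array. The 1 lower gene was the iron exporter Slc40a1, at −0.99 and −2.08 (2.12-fold lower; −0.86 with normexp), whereas the ferritin chains Fth1 and Ftl1 differed by −0.01 and −0.09.

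Some homeostatic microglial genes were lower and some genes of activated microglia higher. Of 18 measured homeostatic genes 0 were higher and 5 lower, 15 differences were below 0, and the median was −0.35. Beside Gpr34, P2ry12, Slc2a5 and Trem2, P2ry13 was at −1.59 with PBS and −2.67 with LPS (2.12-fold lower; −0.71 with normexp). Tmem119 differed by −0.45 and the fractalkine receptor gene Cx3cr1 by −0.69. In whole brain, fewer cells of a type and less RNA per cell cannot be told apart. Csf1r, the receptor microglia depend on, was at 3.98 and 4.07 (0.10). Siglech differed by 0.04 by its brighter probe and by −1.29 by another.

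Of 22 measured activated microglia and macrophage genes 9 were higher and 0 lower (median 0.53). After Fcgr4 and Lilrb4a, given above, the list held 3 further Fc receptor genes, with Fcgr1 at −3.22 with PBS and −1.41 with LPS (3.50-fold; 1.11 with normexp), Fcgr2b at −3.91 and −1.99 (3.77-fold; 1.01 with normexp) and Fcgr3 at −1.55 and −0.30 (2.38-fold; 0.98 with normexp). Marco, a scavenger receptor gene of macrophages, was at −4.57 and −0.72 (14.5-fold), a difference of 3.86 that was 2.14 with normexp and 7.08 in Nav1.8CreROSA26DTA. Slfn2 was at −4.87 and −2.03 (7.19-fold; 1.34 with normexp) and Spp1, which encodes osteopontin, at −0.73 and 1.85 (5.98-fold). Genes of the state seen around amyloid were not all in the list's direction, with Apoe at −0.25 and Lpl at −0.59. Itgax and Clec7a were not well above background on either wild-type array, and Cst7 was at least 7.30-fold higher.

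Markers of blood cells also differed between the arrays. Of 17 measured neutrophil and monocyte genes 9 were higher and 0 lower, with a median of 1.48 that was 0.51 with normexp, 2.26 with no filter on dim probes and 0.35 among genes with both levels above −4. The summed linear level of the list was 107 with PBS and 162 with LPS. Csf3r (6.05 and 5.93) and Ms4a4c (4.90 and 4.98) were its brightest members with PBS and differed little. With PBS, Csf3r was about as bright as the neuronal gene Snap25 (5.95). Which cells or transcripts the probes of this list report was not tested. Bright members that were higher with LPS were Lcn2 (−3.78 and 5.13) and Ly6c2 (2.72 and 4.57), so few genes set this sum. Lcn2, S100a9, S100a8 and Il1r2, given above, were the 4 largest. Ly6g, a surface marker of neutrophils, was at −3.81 with PBS and −0.99 with LPS (7.08-fold; 1.81 with normexp), and Mmp8 at −5.16 and −3.68 (2.79-fold; 0.51 with normexp). Ms4a6c was at −5.53 and −0.97 (23.6-fold; 2.34 with normexp). The granule gene Ngp was at least 5.36-fold, Retnlg at least 13.6-fold and Plac8 at least 11.7-fold higher. Camp, Mpo and Elane, which are made in immature granulocytes, differed by −0.12, 0.13 and 0.05, and Ltf, Cxcr2 and Ccr2 were not well above background on either wild-type array. In Nav1.8CreROSA26DTA, S100a9 and S100a8 differed by 1.17 and 1.26 and Ly6g by 2.45.

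Haemoglobin genes were higher with LPS in wild-type. Of 11 measured erythroid and platelet genes 6 were higher and 0 lower (median 1.09; 0.23 with no filter on dim probes), and the list's summed level, on a linear scale relative to the 75th percentile, was 124 with PBS and 243 with LPS. Hba-a1 was at 5.28 and 6.56 (2.43-fold), Hba-a2 at 5.23 and 6.53 (2.45-fold) and Alas2, the enzyme that begins haem synthesis in red cells, at −2.30 and −0.87 (2.69-fold). Hbb-b1 was at −0.19 and 1.02 (2.32-fold). The platelet genes Pf4 and Gp9 differed by 0.23 and −0.62, and the platelet gene Ppbp was not well above background on either wild-type array. In Nav1.8CreROSA26DTA the same list had a median of −0.94. The share of blood in the tissue was not measured apart from these genes, and its part in the wild-type differences of the neutrophil, endothelial or other lists was not tested.

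Lymphocyte genes were mostly dim, with 7 of 18 measured. The cytotoxic granule gene Gzma was at −4.59 with PBS and −3.51 with LPS (2.10-fold; 0.38 with normexp), and the median of 0.08 turned to −0.01 with the mean over probes. Cd3e differed by 0.22, Cd79b by −0.29, and Cd8a and Ms4a1 were not well above background on either wild-type array.

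Reactive astrocyte genes were higher in 20 of 27 measured cases and lower in 0, with a median of 2.36 (2.27 in Nav1.8CreROSA26DTA). Gfap, the intermediate filament that defines reactive astrocytes, was at 0.98 with PBS and 3.19 with LPS (4.61-fold), and its probes differed by 2.21 to 2.39. Vim, another filament gene, was at 0.77 and 2.04 (2.41-fold), and Nes differed by 0.60. Besides Lcn2, Cxcl10, Gbp2 and Serpina3n, the protease inhibitor gene Timp1 was at −1.80 and 2.54 (20.2-fold). Steap4, a metalloreductase gene, was at least 5.55-fold and the transporter gene Slc10a6 at least 10.7-fold higher. Some members, such as Lcn2, Cxcl10 and Timp1, are also made by endothelial and myeloid cells. The 1 member below 0 was S1pr3 (−0.20). Homeostatic astrocyte genes stayed within 2-fold in all 19 cases, with a median of −0.13. Aqp4, the water channel of astrocyte endfeet, differed by 0.24, the glutamate transporters Slc1a2 and Slc1a3 by −0.13 and 0.00, the potassium channel Kcnj10 by −0.50 and the connexin Gjb2 by 0.84.

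Oligodendrocyte and myelin genes were shifted downward. Of 19 measured 0 were higher and 3 lower, 17 differences were below 0, and the median was −0.57. In Nav1.8CreROSA26DTA the median was −0.04, and the difference between genotypes was not tested. Opalin, a protein of mature oligodendrocyte membranes, was at −1.46 with PBS and −3.04 with LPS (2.99-fold lower). Ninj2 was at −1.19 and −2.60 (2.67-fold lower; −0.94 with normexp). The aspartoacylase gene Aspa was at −0.37 and −1.35 (−0.98). The main myelin genes moved less, with Mbp at 3.39 and 3.04 (−0.35) and Mog at −0.11 and −0.73 (−0.62). Among 14 measured precursor genes Gpr17 was the 1 at least 2-fold lower (list median −0.33). The lineage factors Olig1 and Olig2 differed by −0.72 and −0.81, Enpp6 by −0.94 and Cspg4, which encodes NG2, by −0.74, whereas Pdgfra differed by 0.11.

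Vascular genes went in both directions. In the endothelial activation list, 11 of 23 measured genes were higher and 0 lower (median 0.99). Ctla2a was at 0.67 with PBS and 5.09 with LPS (21.5-fold). Icam1, the leukocyte adhesion receptor, was at −2.35 and 0.66 (8.07-fold), and Plaur, the urokinase receptor, at −3.60 and −0.39 (9.22-fold). Vcam1 differed by 0.34 with another probe at 1.15, Selp, the P-selectin gene, by 0.16, and Sele, the E-selectin gene, was at least 1.51-fold higher. Plau was the member furthest below 0 (−0.97).

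In the list of brain endothelium and barrier genes, 4 of 33 measured were higher and 6 lower (median −0.22). Transporters carried the lower end: after Slc38a5, Slco1c1, Abcb1a and Slc40a1, the organic anion transporter gene Slc22a8 was at −1.89 with PBS and −3.03 with LPS (2.21-fold lower; −0.63 with normexp). Itm2a was the other lower member. The higher members were Pglyrp1, a peptidoglycan-recognition protein gene, at −2.09 and 0.92 (8.03-fold), Ly6a at 0.56 and 3.03 (5.53-fold), Ly6c1 at 2.83 and 4.71 (3.69-fold) and the endothelial cadherin Cdh5 at −1.68 and −0.44 (2.36-fold). Tight junction genes stayed within 2-fold, with Cldn5 at 0.34, Ocln at −0.42 and Tjp1 at −0.30. All 6 lower genes were also lower in Nav1.8CreROSA26DTA, with differences of −2.35 (Slc38a5), −2.32 (Itm2a), −1.70 (Slco1c1), −1.82 (Abcb1a), −1.91 (Slc22a8) and −1.51 (Slc40a1).

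Among 20 measured mural and fibroblast genes 3 were higher and 0 lower (median 0.35). These were the collagen genes Col3a1, at −3.72 with PBS and −1.28 with LPS (5.42-fold; 1.62 with normexp), and Col1a1, at −2.08 and −0.87 (2.31-fold; 0.95 with normexp), and the proteoglycan gene Dcn, at 0.72 and 2.98 (4.81-fold). In Nav1.8CreROSA26DTA they differed by 1.26, −0.25 and 1.37. The pericyte genes Pdgfrb and Rgs5 differed by 0.03 and −0.40. Of 11 measured choroid plexus and ependymal genes 2 were at least 2-fold higher and 0 lower (median 0.26), with 8 differences above 0 and 3 below. The higher ones were Aqp1 and Ccdc153, the latter at −5.76 and −3.44 (4.99-fold, and 0.64 with normexp). Folr1 and Kl, further choroid plexus genes, differed by 0.85 and 0.63. The members below 0 were Foxj1 (−0.04), Rsph1 (−0.11) and Mia (−0.01). In Nav1.8CreROSA26DTA, Aqp1 differed by 3.68, Ccdc153 by 0.76, Folr1 by 0.15 and Kl by 0.18.

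Of 13 measured metalloproteinase and inhibitor genes 5 were higher and 0 lower (median 0.43). After Timp1, the aggrecanase-family genes Adamts9 and Adamts1 were at −4.26 with PBS and −0.41 with LPS (14.4-fold; 2.41 with normexp) and at −1.59 and 0.69 (4.85-fold). Mmp19 was at −4.37 and −2.30 (4.21-fold; 1.05 with normexp). Mmp9 differed by 0.26 and Mmp2 by −0.14. Of 21 measured angiogenic and hypoxia genes 1 was higher and 1 lower (median 0.23). Angptl4, an inhibitor of lipoprotein lipase, was at 0.79 and 2.63 (3.57-fold), Apln was 2.40-fold lower, and Vegfa differed by −0.64.

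In the prostaglandin list, 3 of 16 measured genes were higher and 2 lower, with a median of −0.04 that turned to values of 0.00 to 0.04 under 6 of the alternatives tried. Ptgs2, which encodes the inducible cyclooxygenase of the fever response, was at −1.72 with PBS and −0.37 with LPS (2.56-fold). Ptges, its partner synthase, was at 4.25 and 4.20 by the brighter probe and differed by 0.89 by another. The prostaglandin transporter gene Slco2a1 (1.49) and the receptor gene Ptgdr (1.58) were higher, with 0.90 and 0.68 under normexp. Hpgds, the haematopoietic prostaglandin D synthase, was 2.85-fold lower (−0.33 with normexp) and Tbxas1, the thromboxane synthase, 2.21-fold lower (−0.79 with normexp). In Nav1.8CreROSA26DTA, Ptgs2 differed by 1.47 and Slco2a1 by 0.03.

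Glucocorticoid-responsive genes were higher in 12 of 27 measured cases and lower in 0 (median 0.79, and 0.81 in Nav1.8CreROSA26DTA). Fkbp5, the receptor's co-chaperone and feedback inhibitor, was at 1.64 with PBS and 3.30 with LPS (3.14-fold, with probes at 1.65 to 1.91). Map3k6 was at −0.60 and 1.79 (5.24-fold), Cdkn1a, the cell-cycle inhibitor p21, at −0.62 and 1.64 (4.79-fold) and Tgm2, a transglutaminase gene, at −0.23 and 1.96 (4.57-fold). Tsc22d3, which encodes GILZ, and the clock gene Per1 differed by 0.49 and 0.38. The glucocorticoid receptor gene Nr3c1 differed by −0.31. Several members, among them Lcn2, Cdkn1a and Nfkbia, are also known to respond to cytokines.

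Of 30 measured immediate early genes and Bdnf 5 were higher and 0 lower (median 0.27). Atf3 was at −5.96 with PBS and −4.15 with LPS (3.50-fold; 0.24 with normexp), the endothelial factor Klf2 at −0.01 and 1.53 (2.89-fold), Arc, a regulator of synaptic strength, at 1.70 and 2.80 (2.14-fold) and Klf4 at 0.03 and 1.07 (2.07-fold; 0.97 with normexp). Fos differed by 0.59 and Fosb by −0.19. Bdnf, the neurotrophin, was at −0.09 and −1.08, a difference of −0.99, and at −1.19 in the other genotype. Of 19 measured clock genes 0 were past 2-fold (median 0.05), with Bhlhe40 at 0.54, Per3 at 0.52 and Arntl at −0.24.

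Of 26 measured C/EBP and stress genes 3 were higher and 0 lower (median 0.15). Hspb1, a small heat-shock protein, was at 0.94 with PBS and 3.41 with LPS (5.57-fold), Cebpd at 0.83 and 2.83 (3.99-fold) and Cebpb differed by 0.86. Endoplasmic reticulum stress genes lay near 0, with Ddit3 at −0.12 and Chac1 at −0.26. Of 17 measured cell death and inflammasome genes 5 were higher and 0 lower (median 0.55). Casp4, the sensor of LPS inside cells, was at −3.90 and −1.0 (7.48-fold; 1.88 with normexp) and Gsdmd, its pore-forming substrate, at −3.19 and −1.48 (3.29-fold). Birc3 and Casp12 differed by 2.22 and 1.76 (0.65 and 0.53 with normexp). Casp1 differed by 0.33, and the necroptosis genes Mlkl and Ripk3 were at least 5.74-fold and 6.40-fold higher.

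Metabolic and peptide lists held single genes past 2-fold. In the kynurenine list Kyat3 was the 1 of 11 measured (1.03; 0.97 with normexp), with Ido1, the tryptophan-degrading enzyme induced by interferon, at −3.60 with PBS and −2.65 with LPS (0.96). In the cholesterol list Ch25h was the 1 of 22, and the synthesis gene Sqle differed by 0.08. In the hypothalamic list Hdc, the histamine-making enzyme, was the 1 of 20, at −3.58 and −2.04 (2.90-fold; 0.95 with normexp), while Pomc differed by −0.26 and Crh by −0.11. Its list median of −0.03 was 0.01 to 0.04 with normexp, the deposited value table and cyclic loess.

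Among sodium channel genes, Scn10a was the 1 of 12 measured past 2-fold. It encodes Nav1.8, the channel whose locus defines the study's second genotype. It was at −2.20 with PBS and 0.08 with LPS (4.87-fold), with probes at 1.64 and 2.28, and in Nav1.8CreROSA26DTA it was at −2.54 and 0.55 (difference 3.09). The main brain channels Scn1a, Scn2a and Scn8a differed by −0.29, −0.16 and 0.02, and Scn9a was not well above background on either wild-type array. The list median of −0.03 was 0.02 to 0.03 with quantile normalization, cyclic loess and the deposited value table.

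Neuronal genes stayed within 2-fold in all 29 measured cases, with a median of −0.15 and 24 differences below 0. Rbfox3, which encodes NeuN, differed by 0.01, Snap25 by −0.07 and Syt1 by −0.29, and the largest were those of the cholinergic and serotonergic enzymes Chat (−0.73) and Tph2 (−0.68). All 26 measured ionotropic receptor genes were also within 2-fold (median −0.19), with the NMDA receptor subunit Grin2b at −0.87 by one probe and −0.08 by another. The 21 oxidative phosphorylation genes (median −0.08) and the 24 cytosolic ribosomal protein genes (median −0.08, or 0.00 with cyclic loess) were within 2-fold. Their differences ranged from −0.22 to 0.09 and from −0.22 to 0.15. Of 20 measured cell-cycle genes Ccnb1 was the 1 past 2-fold, while Mki67 differed by 0.33 and Mcm6 by 0.79. Of 8 REG lectin genes 2 were measured, with Reg1 at −0.21, and Reg3g, an antibacterial lectin, was at least 4.53-fold higher.

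**Figure D4:**
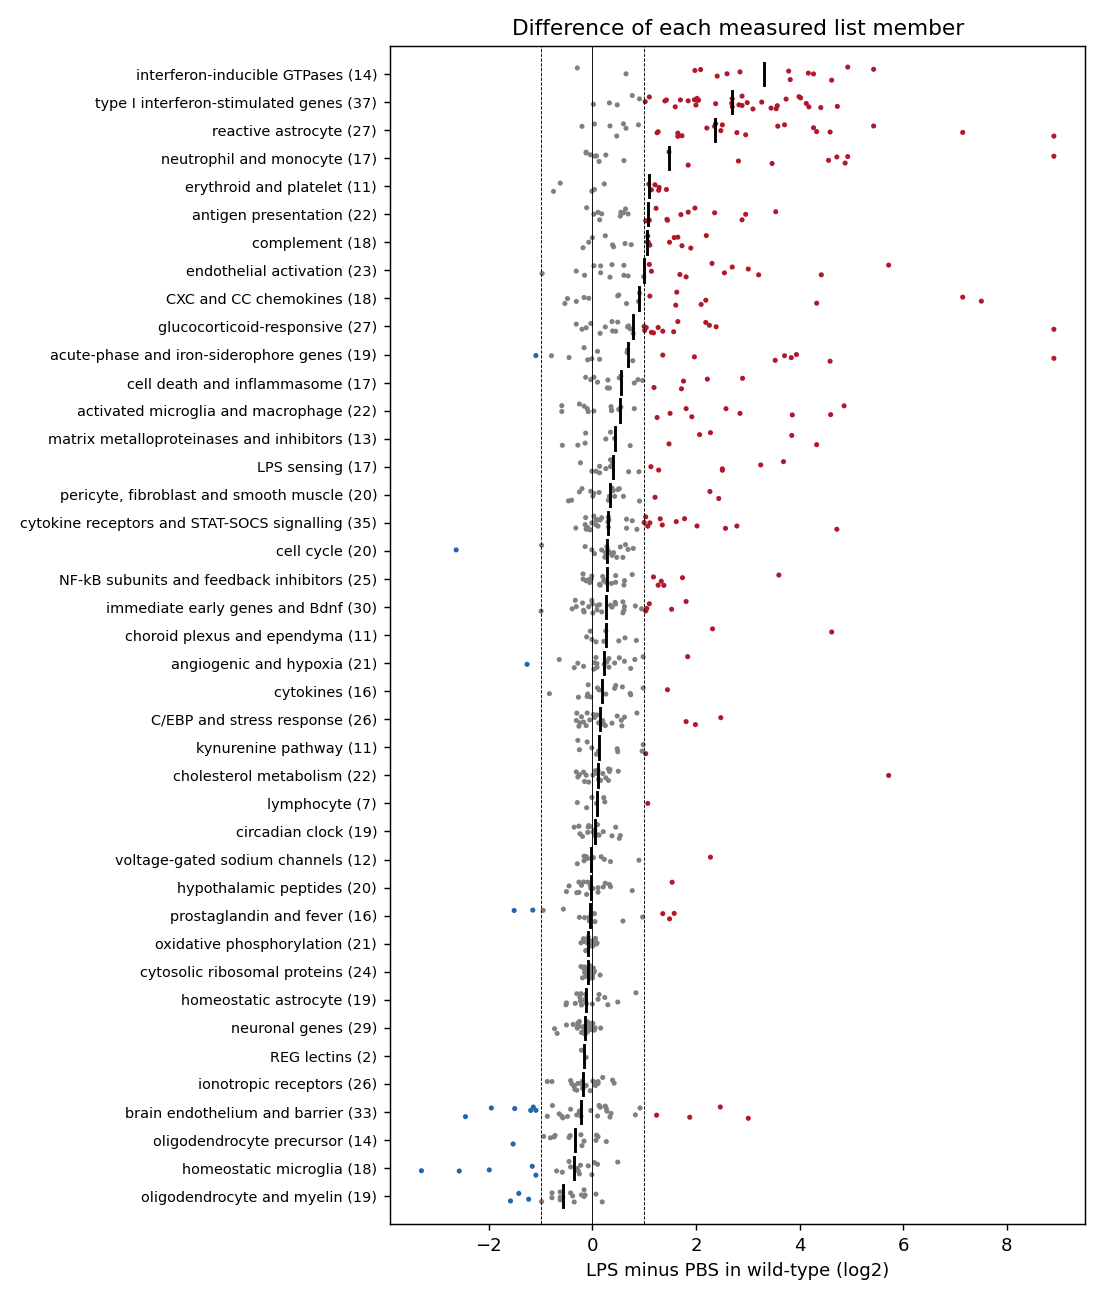
Each row is 1 of the 41 gene lists, with its number of measured genes in brackets, and each point is the LPS minus PBS difference of 1 gene in wild-type brain (log2), with the vertical bar at the list's median. The rows run from interferon-inducible GTPases (median 3.32) to oligodendrocyte and myelin genes (median −0.57), and dashed lines mark 2-fold.

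The lists covered a minority of what differed. Of the 562 higher genes 188 were on a list, and of the 102 lower genes 19. Of all 16494 measured genes 779 were on a list, so listed genes were more frequent among those past 2-fold. The lists were chosen with earlier results of these data known. Many higher genes also lay beside each other in the genome. Of the 562, 135 (24.0%) had a directly neighbouring measured gene that was also at least 2-fold higher, against 6.47% of all measured genes. For the 102 lower genes it was 12 (11.8%), against 1.22% of all. The annotation's gene order gave 17 runs of 3 or more higher neighbours with 59 genes in all. The runs were chosen after their values were seen. The longest, with 5 genes each, were Gbp5, Gbp7, Gbp3, Gbp2 and Kyat3 on chromosome 3 (differences 1.03 to 5.43), Phf11a, Phf11b, Phf11d, Gm45935 and Setdb2 on chromosome 14 (1.40 to 3.27), and Ly6a, Ly6c1, Ly6c2, Ly6g and 9030619P08Rik on chromosome 15 (1.85 to 2.82). Runs of 4 genes were Psmb9, Tap1, Psmb8 and Tap2 in the major histocompatibility complex on chromosome 17 (1.44 to 2.96) and the complement protease genes C1ra, C1s1, C1rb and C1s2 on chromosome 6 (1.49 to 1.73). Most runs are families of copied genes, whose probes may share sequence.

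By gene family, 6 of 8 measured Gbp genes, 5 of 8 Oas genes, 4 of 5 Ifitm genes and 4 of 6 Slfn genes were at least 2-fold higher, and 0 lower. Of 15 Ccl genes 6 were higher and 1, Ccl24, lower. Of 27 genes named H2- in the major histocompatibility complex 12 were higher (median 0.60). Of 302 measured solute carrier genes 12 were higher and 8 lower (median 0.00). Of 371 zinc finger genes named Zfp 3 were higher and 0 lower, and of 95 ribosomal protein genes 0 were past 2-fold.

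The Nav1.8CreROSA26DTA pair of arrays was measured in the same way and shares no array with the wild-type pair. In that pair 513 of 16530 genes (3.10%) were at least 2-fold higher and 235 (1.42%) lower with LPS. Over 16244 genes measured in both pairs, 542 were higher in wild-type and 485 in the other genotype, and 373 were higher in both, which is 68.8% of the wild-type and 76.9% of the other list. In the lower direction the counts were 98, 218 and 43, the last being 43.9% of the wild-type and 19.7% of the other list. Of the 542 wild-type higher genes, 510 were above 0 in the other pair, with medians of 1.62 in wild-type and 1.37 in Nav1.8CreROSA26DTA. Of the 98 lower genes, 85 were below 0 in the other pair, with medians of −1.22 and −0.93. The shares of all 16244 genes above or below 0 in the other pair are not given, so these sign counts have no base rate. Across genes, which are not independent replicates, the differences of the 2 pairs had a Pearson correlation of 0.730 and a Spearman correlation of 0.490. In 4 genes a difference past 2-fold upward in wild-type stood against one past 2-fold downward in the other genotype, and in 1 gene the reverse. With 1 array per group, none of these differences between genotypes was tested.

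**Figure D5:**
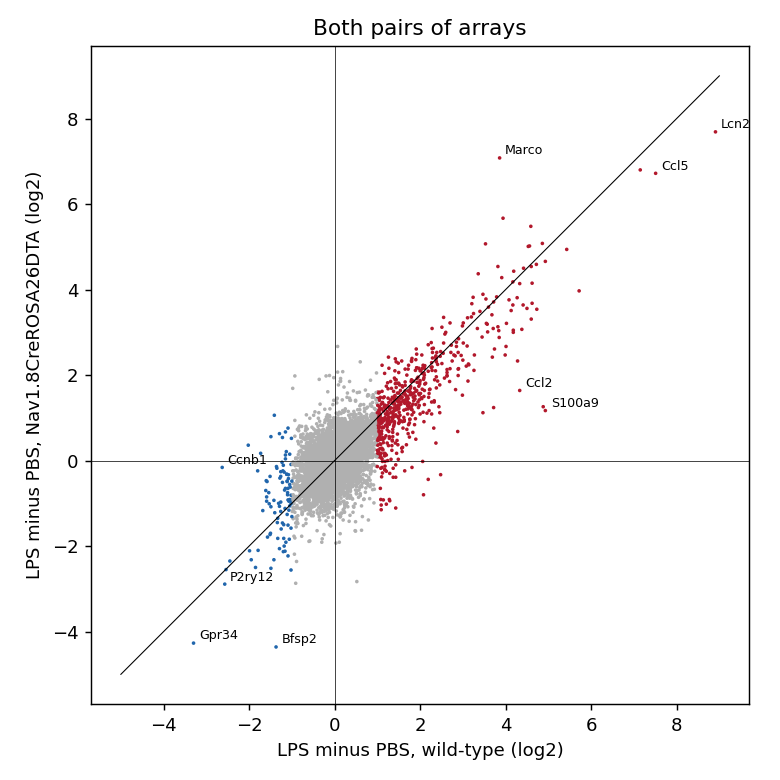
Each point is 1 of 16244 genes measured in both pairs, with the LPS minus PBS difference in wild-type on the x axis and in Nav1.8CreROSA26DTA on the y axis (both log2), and red and blue points are the genes at least 2-fold higher or lower in wild-type. The line marks equal differences, and S100a9 (4.93 and 1.17) lies below it while Marco (3.86 and 7.08) lies above it.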

How the data were processed

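Total RNA was labelled with Cy3 and hybridised to 1-colour Agilent arrays, per the labels' protocols. The deposited processed signal is a linear intensity, background-subtracted and detrended within each array, per the file headers, which name Feature Extraction 12.0.3.1, while the submitters' processing notes name 11.0.1.1. The well-above-background, saturation and outlier marks are other deposited values of 0 or 1. The authors' value table, also a linear intensity, equalled the processed signal times 1 factor per array (1.82 and 1.83 for wild-type PBS and LPS) within 0.1%. Its direction is that of the signal and the basis of the factors is unstated.

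Here, outlier spots were left out (88 on the PBS and 84 on the LPS array), log2 intensities were scaled to each array's 75th percentile, and replicate spots were averaged. Gene names came through accessions with RefSeq's GRCm38.p6 gene table, and 33767 of 56605 probes had 1 symbol and 22838 none. A gene was represented by 1 probe, the one above background on most arrays and then the brightest. Genes measured on both wild-type arrays were compared by their difference, with 2-fold as a descriptive threshold and no test. Python 3.11.15, numpy 2.4.6, pandas 2.3.3 and, for the alternatives, limma 3.58.1 in R 4.3.3 were used, and the counting was tested on simulated data. The genes named were the 15 largest differences in each direction, the 10 largest negative ones at or above the 75th percentile, the 10 highest bounds in each direction, and from each list its 4 largest by size, its first 3 and members that show a list going both ways, while other list members were named after their values were seen. The comparison and the gene lists were chosen with earlier results of these data known. Precision is limited by the number of arrays, 1 in each group. Promoter windows came from RefSeq, and where a gene had several the first listed was used.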

Additional observations from a re-analysis of the deposited data

Results flagged for a closer look

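Several genes moved in opposite directions with LPS in the pairs of arrays from the 2 genotypes. The erythroid and platelet list had a median difference of 1.09 in wild-type and −0.94 in Nav1.8CreROSA26DTA. Its members Hba-a1 (1.28 and −0.91), Hba-a2 (1.29 and −0.94), Hbb-b1 (1.21 and −1.02) and Alas2, the haem synthesis enzyme of red cells (1.43 and −1.11), went the same way as the list. Probes for haemoglobin genes share sequence with close copies, so which gene a value belongs to is uncertain. Bub1b, a mitotic checkpoint kinase gene, differed by −0.98 in wild-type and 1.69 in Nav1.8CreROSA26DTA, and it was dim in wild-type, at −4.42 with PBS and −5.40 with LPS. With 1 array per group, these differences between genotypes were not tested.

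Some probes with no gene name in the table used here were past 2-fold. Of 11690 such probes measured on both wild-type arrays, 173 were at least 2-fold higher and 67 at least 2-fold lower with LPS. Among the 16494 measured named genes, each counted by 1 probe, 562 (3.41%) were higher and 102 (0.618%) lower. A smaller share of the probes without a name was higher. Probes and genes are unlike units, since a gene's probe was picked partly for its brightness. The brightness of the unnamed probes was not matched to that of the genes.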

How the results depend on the processing

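Counts of genes past 2-fold, 562 higher and 102 lower, moved with the treatment of dim probes and with the threshold. Normexp background correction, run on the median in place of the mean spot signal and with an offset of 50 added, gave 316 higher and 26 lower. No filter on dim probes gave 1311 and 655, and both levels above −4 gave 353 and 61. Thresholds of 1.5-fold and 4-fold gave 1078 and 527, and 187 and 6. Under the other scalings, the deposited value table, the mean over probes and with outlier spots kept, the counts were 551 to 601 higher and 87 to 105 lower. The median over all genes stayed between −0.03 and 0.03, and the share of wild-type higher genes also higher in Nav1.8CreROSA26DTA stayed between 66.0% and 71.1%, the alternatives for these 2 values having been chosen after seeing the data. The alternatives were run on 222 genes past 2-fold, namely all such list members, the largest differences and Ccl24, some of them added after seeing the data. None of the 222 differences and no list median past 2-fold turned its sign. Of the 222, 55 were within 2-fold with normexp, 4 with the mean over probes, 2 with quantile normalization, 1 with scaling to the median, and 0 under each of the others, where 165 had both levels above −4. The normexp offset shrinks dim differences by construction, and its part in the 55 was not separated from that of background. Signal over background limits the dim genes, and leaving out a replicate is impossible with 1 array per group. No paired analysis was possible because the labels give no replicate numbers.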
